A study of Mus musculus with 4 samples.

Results

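Gas1 and 7 genes of fibroblast growth factor (FGF) ligands, Fgf20, Fgf16, Fgf9, Fgf8, Fgf10, Fgf7 and Fgf2, were examined for binding of WT1 in the embryonic mouse kidney. They were chosen by name, as 8 of the 21887 protein-coding genes in the RefSeq gene table used here, and all 8 were found in it. For each gene, every WT1 peak or region whose midpoint lay in the gene or within 50 kb of it was taken. The chromatin came from microdissected kidneys of wildtype embryos at E18.5, from a mixed background in which C57Bl6 mice were crossed with B6DBA/F1 mice. Chromatin immunoprecipitation and sequencing (ChIP-seq) was carried out with an antibody against WT1 (C-19) in 2 samples and with IgG in 2 samples, in 2 experiments that are described as independent. The IgG samples were not analysed here, so every value below comes from the 2 WT1 samples, called replicates 1 and 2. Both carry the same genotype and stage, and the number of kidneys or litters in each is not stated in the sources used here.

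WT1 is a zinc-finger transcription factor that is needed for the survival of the metanephric mesenchyme, the tissue that holds the nephron progenitors, and later for the podocytes of the glomerular filter. FGF ligands are secreted proteins that bind receptor tyrosine kinases on neighbouring cells and act in large part through the ERK cascade. In the kidney, FGF9 and FGF20 keep nephron progenitors undifferentiated and alive, FGF8 is needed for the survival of the cells that form the first nephron epithelium, and FGF7 and FGF10 act mainly on the epithelium of the ureteric bud and collecting ducts. GAS1 is a membrane-anchored protein related to the receptors for GDNF. It binds Hedgehog ligands as a coreceptor, and in the kidney it has been linked to FGF signalling in progenitors. The study belongs to work on how WT1 sets FGF signalling against bone morphogenetic protein (BMP) and SMAD signalling in early renal progenitors, and the question here was which of these genes carried WT1 at or near them.

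The peak lists held 53132 peaks for replicate 1 and 57641 for replicate 2, and the deposited table of regions found in both held 17234. Each peak has 1 significance value from the authors, cut at 0.05, and each region of the table has a value read here as an irreproducible discovery rate (IDR), an error rate that is low where both replicates rank a region highly. Regions at an IDR of 0.05 or lower, 4411 in all, are called reproducible. The lists carry no read counts or peak heights, so depth per peak is unknown, a significance value is not a measure of occupancy, and with 2 samples of 1 group no test between samples was made. In chromatin from a whole kidney, strong binding in few cells and weak binding in many cannot be told apart, nor can binding in progenitors and in podocytes. The files hold no expression values, so the labelled tissue was not checked against its marker genes.

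The Gas1 promoter is shown because the WT1 peaks of both replicates lay on it, and the Fgf10 promoter because a peak lay on it in replicate 2 and not in replicate 1. Both are RefSeq sequences of build GRCm38.p6, read 5′ to 3′ in the direction of the gene, and end at the base before the annotated start site. For Gas1 (chr13:60177536-60177785, minus strand) the capitals mark the letters GTGGGAG, a match to the core of the WT1 motif. For Fgf10 (chr13:118714449-118714698, plus strand) the capitals mark the 132 bases of the replicate 2 peak.
Gas1: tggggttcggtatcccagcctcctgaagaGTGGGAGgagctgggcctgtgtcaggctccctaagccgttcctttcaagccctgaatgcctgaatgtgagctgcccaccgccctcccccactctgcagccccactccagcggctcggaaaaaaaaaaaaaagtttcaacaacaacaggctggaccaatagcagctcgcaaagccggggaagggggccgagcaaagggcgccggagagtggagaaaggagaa
Fgf10: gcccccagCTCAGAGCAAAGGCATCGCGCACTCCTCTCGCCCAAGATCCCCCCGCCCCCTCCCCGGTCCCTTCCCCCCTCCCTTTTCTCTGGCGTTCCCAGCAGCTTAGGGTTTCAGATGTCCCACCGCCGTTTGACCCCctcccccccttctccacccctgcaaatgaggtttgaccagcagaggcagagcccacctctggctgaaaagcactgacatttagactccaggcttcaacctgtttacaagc

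Gas1 had the strongest region of the 8 genes. In replicate 1 the peak ran from 60177557 to 60177958 on chromosome 13 with a significance value of 2.96e-20, and in replicate 2 from 60177301 to 60177992 with 4.45e-35. These peaks ranked 457 in the list of replicate 1 and 529 in that of replicate 2, within the first 0.860% and 0.918% of the lists. The joint region (60177301 to 60177992, 692 bp) had an IDR of 3.13e-06 and ranked 394 of 17234. Gas1 is a gene of 3131 bp on the minus strand (60174405 to 60177535), so the region spanned the annotated start site, with its midpoint 112 bp from that end of the gene and outside it. It covered all 250 bases shown above. The peak of replicate 1 covered 229 of them and stopped 22 bases before the start site, whereas that of replicate 2 ran 234 bases beyond it.

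The GTGGGAG of the Gas1 promoter lay at 60177750 to 60177756, at position -221 from the start site, inside the peaks of both replicates. The letters TCCTCC, a second sequence bound by WT1, matched at 60177748 to 60177753 on the other strand, sharing bases with GTGGGAG, and once more after the start site. GTGGGCG, which WT1 shares with EGR1, had no match. Among the 626 RefSeq promoters that a reproducible region overlapped, Gas1 included, 23.3% held GTGGGAG, 14.9% held GTGGGCG and 55.9% held TCCTCC on either strand. Over all 32851 promoters of the same 300 bases these shares were 9.73%, 7.97% and 34.5%. A match is a description of the letters and does not show a binding site.

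No other protein-coding gene lay within 50 kb of Gas1, and the next one, Tut7, was 354 kb from the region. The window also held a weaker overlap region 26.7 kb beyond the other end of the gene (60147610 to 60147750, IDR 0.434, rank 13317), with significance values of 0.00225 in replicate 1 and 0.0175 in replicate 2. Each replicate had 4 peaks in the window, and the 2 peaks of each that lay in no overlap region had values between 0.00479 and 0.0371. The Gas1 window thus held 1 reproducible region at the start site and nothing else past the threshold.

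Fgf20, Fgf16 and Fgf9 form 1 subfamily of FGF ligands, and their loci differed. At Fgf20 the peak of replicate 1 (chromosome 8, 40287000 to 40287389) had a significance value of 7.83e-14 and that of replicate 2 (40286835 to 40287469) had 2.92e-24, at ranks 836 and 956 in their lists. The joint region of 635 bp had an IDR of 1.25e-05 and ranked 721 of 17234. Its midpoint lay 199 bp outside the higher-coordinate end of the gene (40279166 to 40286953). Each replicate had 1 other peak in the window, 15.1 kb from the gene in replicate 1 (value 0.0371) and 45.4 kb from it in replicate 2 (value 0.0355). The nearest other gene, Micu3, which encodes a regulator of the mitochondrial calcium uniporter, was 20.3 kb from the region, so Fgf20 was the closest gene.

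Fgf16, on the X chromosome (105764477 to 105776532), encodes a ligand close in sequence to FGF9 and FGF20. It had a narrow region of 158 bp (105763943 to 105764100) whose midpoint was 456 bp outside its lower-coordinate end. The significance value was 4.32e-07 in replicate 1 and 9.06e-09 in replicate 2, the IDR 0.00584 and the rank 2622. The peak edges of the replicates differed by 1 bp at the start and 0 bp at the end. A second overlap region lay next to it (105763482 to 105763835, 818 bp from the gene). There replicate 2 had 6.01e-07 and replicate 1 had 0.0449, and the IDR was 0.555, near the end of the table at rank 17202. Fgf16 therefore had a pair of neighbouring peaks in each replicate, of which 1 passed, while the other was strong in replicate 2 and close to the 0.05 cut in replicate 1. Replicate 2 had 2 more peaks in the window, at 0.0156 and 0.045. Atrx, a chromatin remodeller gene, was the next gene at 33.6 kb.

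Fgf9 carried many peaks and no reproducible region. Each replicate had 7 peaks in its window of 142 kb on chromosome 14. The density of 4.92 peaks per 100 kb was reached by 10.2% of protein-coding genes in replicate 1 and 23.1% in replicate 2. The 2 overlap regions had IDRs of 0.410 and 0.413. The one from 58104430 to 58104737 lay inside the gene (58070671 to 58112854), 8.27 kb from the nearer end. There replicate 1 had 1 peak with a value of 0.016, and replicate 2 had 2 peaks with 2.25e-05 and 2.15e-04. The other, from 58071743 to 58072073, lay 1.24 kb inside the lower-coordinate end, and its nearer edge was 613 bp before the start site given in the promoter table (58072686). It had 0.0371 in replicate 1 and 8.44e-04 in replicate 2. Both Fgf9 regions were thus found in both replicates, low in the list of replicate 1 (first 35.0% and 73.3%) and higher in that of replicate 2 (first 11.8% and 19.4%).

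At the higher-coordinate end of Fgf9, replicate 2 had a peak of 283 bp (58112668 to 58112950, value 5.53e-05, midpoint 45 bp inside the gene), and no peak of replicate 1 overlapped it. The lowest value of replicate 1 in this window, 1.99e-04, lay 43.6 kb outside the gene, where replicate 2 had none. The Fgf9 promoter held no GTGGGAG or GTGGGCG and 2 matches of TCCTCC, and no peak of either replicate overlapped the 250 bases before its start site.

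**Figure D1:**
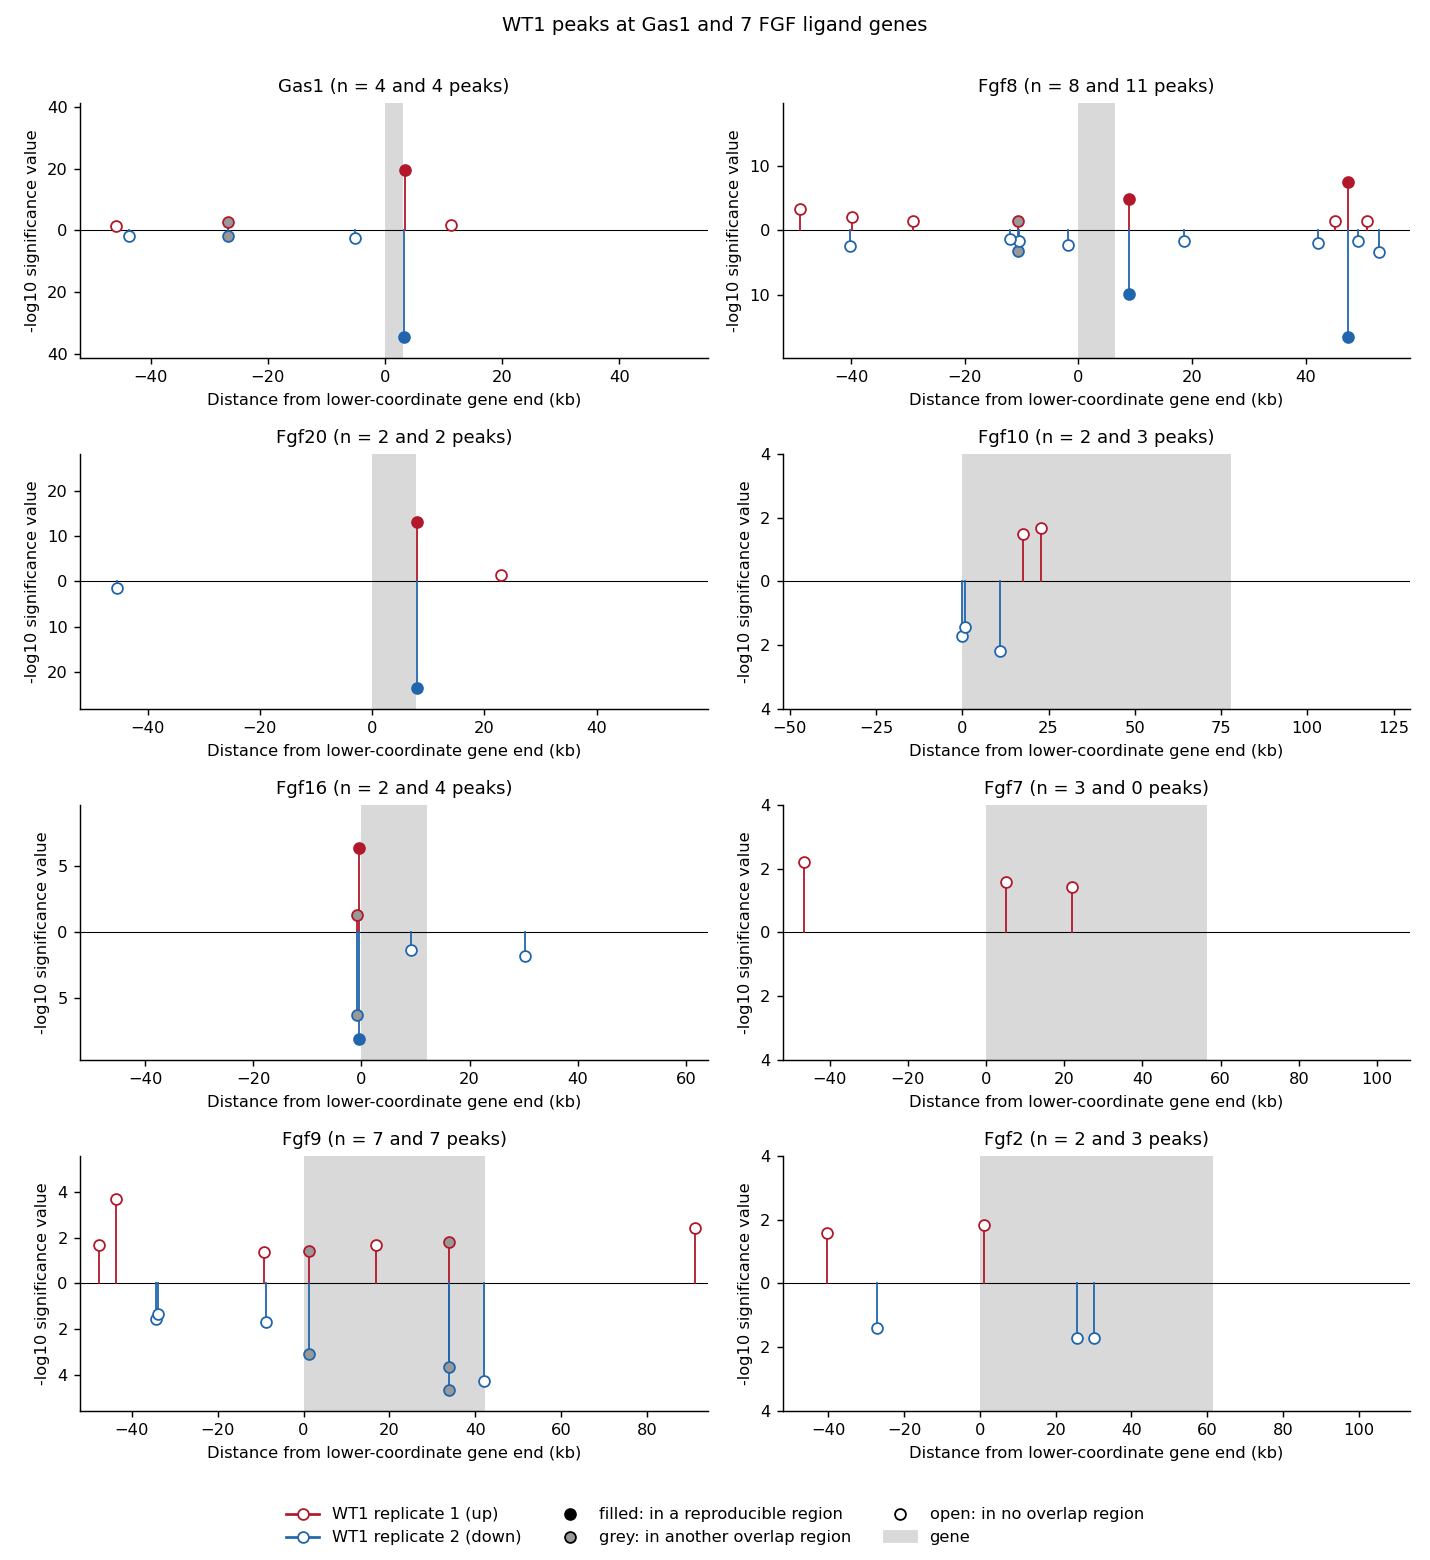
WT1 peaks at Gas1 and the 7 FGF ligand genes, with the distance from the lower-coordinate end of the gene in kb on the x axis and −log10 of the authors' significance value on the y axis, replicate 1 drawn upwards and replicate 2 downwards. The y scale differs between panels, the grey band is the gene, and filled, grey and open points are peaks in a reproducible region, in another overlap region and in none. Filled points stand at Gas1, Fgf20, Fgf16 and Fgf8, and the points of Fgf10, Fgf7 and Fgf2 are all open.

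Fgf8, whose product keeps cells of the forming nephron alive, lay among the most peaks of the 8 genes. Its window of 106 kb on chromosome 19 held 8 peaks of replicate 1 and 11 of replicate 2. Such a density was reached by 2.14% of protein-coding genes in replicate 1 and 3.44% in replicate 2. Of 3 overlap regions 2 were reproducible, and 8.37% of protein-coding genes had 2 or more in the same window. The window also held the genes Npm3, Oga and Kcnip2, and for each reproducible region at least 1 of them was nearer than Fgf8.

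The stronger Fgf8 region (45783846 to 45784129, 284 bp) had significance values of 3.22e-08 in replicate 1 and 3.16e-17 in replicate 2, an IDR of 3.12e-04 and rank 1409. It lay 41.0 kb from Fgf8 (45736491 to 45742941), but 344 bp from an end of Oga, which encodes the enzyme that removes O-GlcNAc from proteins, and 8.36 kb from Kcnip2, which encodes a potassium channel interacting protein. The other (45745422 to 45745568, 147 bp) had 1.14e-05 in replicate 1 and 1.13e-10 in replicate 2, an IDR of 0.00269 and rank 2216. Its midpoint was 2.55 kb from the higher-coordinate end of Fgf8, 2.24 kb from Npm3, a gene of the nucleoplasmin family, and 4.76 kb from Oga. Neither region can be given to Fgf8 by distance. The overlap region for which Fgf8 was the nearest gene (45725763 to 45725969, 10.6 kb beyond its lower-coordinate end) had an IDR of 0.265, with 0.0314 in replicate 1 and 6.06e-04 in replicate 2.

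Both reproducible Fgf8 regions had the same first and last base in both replicates. Per the labels, the library DNA was digested with MseI together with either AluI or HaeIII, so peak edges were set against these sites. In promoters, 23.4% of 2197 peak edges of replicate 1 and 16.4% of 3707 of replicate 2 lay exactly at an AluI cut (AGCT), against 0.526% of all promoter positions with this site. For MseI (TTAA) the shares were 6.14% and 5.85% against 0.324%, and for HaeIII (GGCC) 0.501% and 1.19% against 0.611%. The first base of the Fgf10 peak shown above stood at an AluI cut and its last base at none of the 3 sites, and the edge of the Gas1 peak of replicate 1 that lay in its promoter also stood at none. In promoters, many edges thus coincided with AluI or MseI cut sites. The edges at Fgf16 and Fgf8 were not set against these sites, so whether they coincide with a cut was not tested. Widths such as the 158 bp at Fgf16 or the 147 bp next to Fgf8 do not by themselves locate the bound bases.

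Fgf10, Fgf7 and Fgf2 had no overlap region. Fgf10, a mesenchymal ligand for the ureteric epithelium, is a gene of 77875 bp on chromosome 13 (118714699 to 118792573). Replicate 1 had 2 peaks inside it, 17.7 and 22.9 kb from its start (values 0.0314 and 0.0215). Replicate 2 had 3 others, of which the one on the promoter (118714457 to 118714588, value 0.0197) had its midpoint 176 bp before the start site, the next lay 853 bp after it (0.0364) and the last 10.8 kb after it (0.00651). Both replicates thus placed weak peaks in the first part of Fgf10, at different positions.

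Fgf7, a ligand of the same subfamily (chromosome 2, 126034658 to 126091185), had 3 peaks in replicate 1 and 0 in replicate 2. Their values were 0.00627 at 46.7 kb outside the gene, and 0.0261 and 0.0371 inside it. Fgf2, a broadly acting ligand long used as a growth factor in culture (chromosome 3, 37348477 to 37410106), had 2 peaks in replicate 1 and 3 in replicate 2. One of replicate 1 lay 785 bp after the start site (37349313 to 37349563, value 0.0145), and the lowest value of replicate 2 was 0.0197, in each of 2 peaks inside the gene. The promoters of Fgf10 and Fgf7 held none of the 3 letter sequences, and that of Fgf2 held TCCTCC once. None of the 13 peaks in these 3 windows had a value of 0.001 or lower. Promoters of Fgf20, Fgf16 and Fgf8 were not analysed here.

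Among the 5 reproducible regions, which the IDR selects for like ranks in both replicates, the order by significance is a description only. Gas1 came first, Fgf20 next and then the distal Fgf8 region in each. Fgf16 preceded the nearer Fgf8 region in replicate 1 (4.32e-07 and 1.14e-05) and followed it in replicate 2 (9.06e-09 and 1.13e-10), so these neighbours have no fixed order. The 5 other overlap regions ran differently in the replicates: the Gas1 region had the lowest value of them in replicate 1 (0.00225) and the highest in replicate 2 (0.0175), and the Fgf16 region the highest in replicate 1 (0.0449) and the lowest in replicate 2 (6.01e-07). No region of these genes had an IDR between 0.00584 and 0.265, so none stood close to the threshold.

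**Figure D2:**
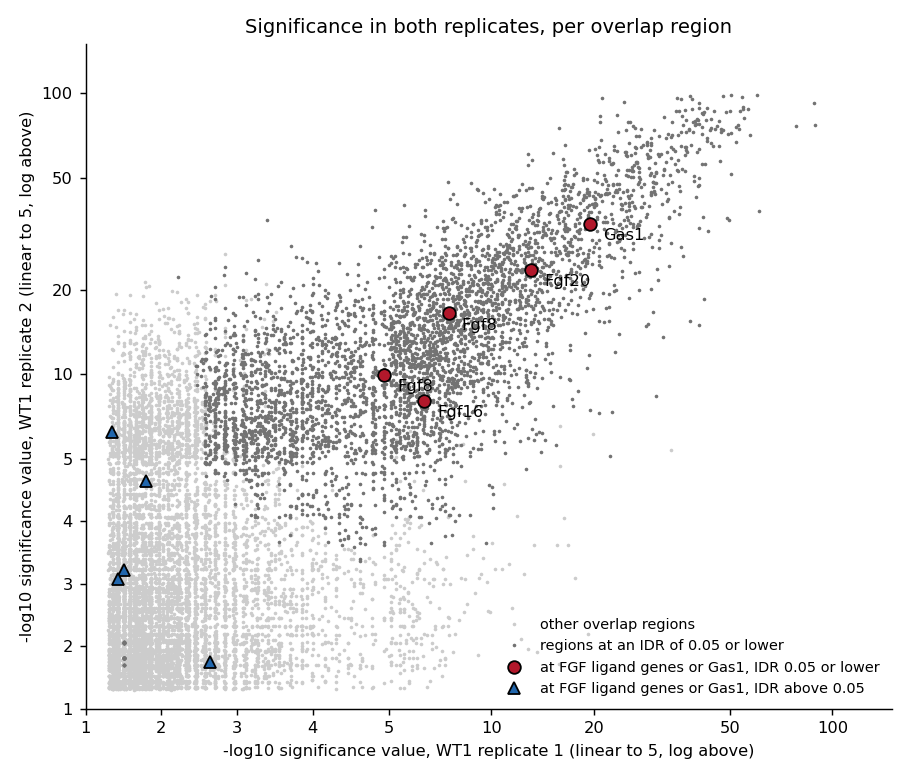
The −log10 significance value of each overlap region in replicate 1 (x axis) and replicate 2 (y axis), linear to 5 and logarithmic above, with small grey points for all regions (45 with a value of 0 in either replicate are not drawn). Circles are the 5 reproducible regions at Gas1, Fgf20, Fgf8 and Fgf16, which are low in value in both replicates, and triangles are the 5 other overlap regions of the 8 genes, each with a value above 0.01 in at least 1 replicate.

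A peak of replicate 1 lay in the window of all 8 genes, against 84.4% of protein-coding genes. For replicate 2 it was 7 of 8 against 83.3%, and for a peak of each replicate 7 of 8 against 77.0%, so having a peak in so wide a window did not set these genes apart. An overlap region of any IDR lay at 5 of 8 genes, against 57.0% of all genes, and a reproducible one at 4 of 8, against 26.1%. Within 1 kb of a gene end, 3 of 8 had a reproducible region, against 4.13% of all genes. Peaks of both replicates without an overlap region were found at 2 of 8 genes (Fgf10 and Fgf2) and at 20.0% of all genes. Because the genes were chosen with results of these data known, these counts are a description with no test, and the windows of neighbouring genes overlap.

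Counted per length of window, the 8 genes held 0.468 reproducible regions per 100 kb, against 0.265 over the windows of all genes, while for overlap regions of any IDR the densities were 0.937 and 0.933. In replicate 1, 10 of their 30 peaks lay in an overlap region (33.3%, against 34.1% of all peaks), and in replicate 2, 11 of 34 (32.4%, against 30.8%). Values of 0.001 or lower were held by 7 of the 30 and 12 of the 34, 23.3% and 35.3%, against 11.4% and 20.4% of all peaks. The shares of peaks found again were thus close to those of the whole lists, and the shares of strong peaks were larger, with 7 of the strong ones at Fgf8 and 5 at Fgf9. The whole lists are not limited to gene windows, so the 2 sides of this comparison differ in placement. The strong peaks counted at Fgf8 include those of the reproducible regions that lay nearer to Oga or Npm3. These 2 regions are also among the 5 behind the density of 0.468, which thus rests in part on regions that cannot be given to Fgf8. The windows of all genes likewise count regions nearer to another gene.

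**Figure D3:**
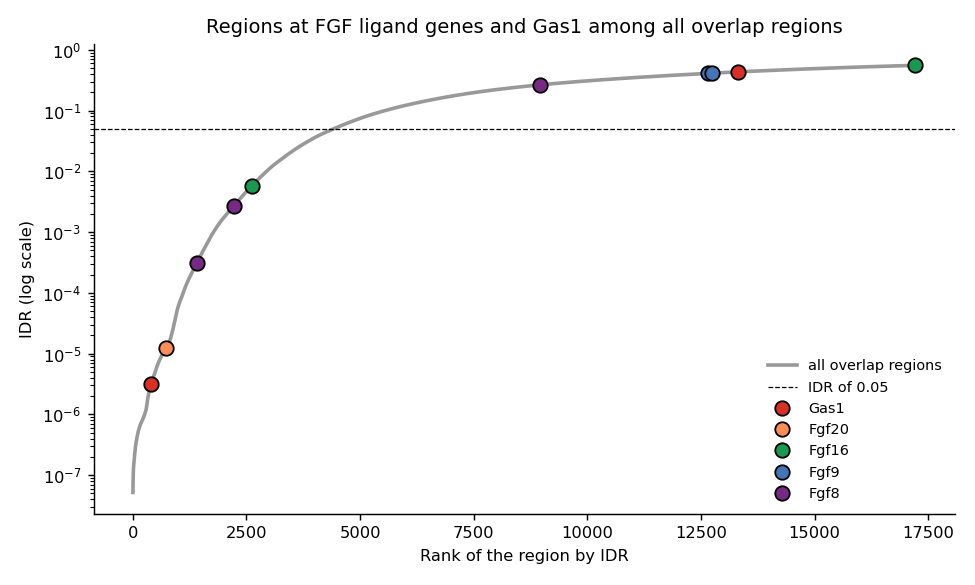
IDR on a log scale against the rank of each of the 17234 overlap regions (grey line), with the 10 regions at 5 of the genes as coloured points and the threshold of 0.05 as a dashed line. The 5 reproducible regions rank between 394 and 2622, and the other 5 between 8953 and 17202.

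Among the 905 protein-coding genes with a reproducible region within 1 kb of an end, and counting the gene itself, 66 had one at an IDR as low as that of Gas1 or lower, 130 as low as that of Fgf20 and 536 as low as that of Fgf16. The genes nearest in rank by the region within 1 kb of an end were for Gas1 (rank 394) the adhesion gene Nectin1 (395), for Fgf20 (721) Pcbd2 (718), and for Fgf16 (2622) the semaphorin receptor gene Plxna2 (2624). Likeness here means only the rank of 1 region.

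The other genes of the pathway were counted in the same windows. Of the 15 other Fgf genes, taken by name whether or not their products act as secreted ligands, 3 had a reproducible region within 50 kb. Of these 15, 0 had one within 1 kb of an end. Fgf21, an endocrine ligand, had the lowest IDR (1.99e-07), but 45.4 kb away and 0.469 kb from Bcat2. Fgf11 had 2 (lowest IDR 0.0141, inside Zbtb4) and Fgf1 had 1 (0.0238, 36.6 kb from the nearer end and also inside Arhgap26). Over all 22 Fgf genes, 6 had a reproducible region within 50 kb (27.3%, against 26.1% of all genes) and 2, Fgf20 and Fgf16, within 1 kb of an end (9.09%, against 4.13%). As a family the Fgf genes were thus close to the background in the wide window. The gene-end share rests on 2 genes only, and Fgf9, of the same subfamily, had no reproducible region. Whether this share differs from that of all genes was not tested.

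Over all protein-coding genes, 26.1% had a reproducible region in the gene or within 50 kb, and 4.13% had one within 1 kb of an end. Of 10 receptor and coreceptor genes, 5 had a reproducible region within 50 kb and 1, Fgfr4, within 1 kb of an end (651 bp, IDR 9.31e-06). Those at the receptor genes Fgfr1 and Fgfr2 were 23.1 and 40.7 kb away (7.24e-07 and 3.07e-06). Of 13 intracellular and feedback genes, 8 had one within 50 kb and 4, Dusp6, Etv4, Etv1 and Spry2, within 1 kb. The lowest IDRs of this list stood at the feedback inhibitor genes Spry4 (6.67e-06, 30.2 kb away and inside Arhgap26), Spry1 (1.24e-04, 22.1 kb away) and Dusp6 (0.00114, 112 bp away). Of the 5 genes of the GDNF receptor family, the relatives of Gas1, 1 had reproducible regions. It was Gfra1, with 2, the stronger inside the gene at an IDR of 0.0124. Of 9 genes of BMP and SMAD signalling, Smad3 among them, 5 had one within 50 kb and 2, Bmp7 and Smad3, within 1 kb. This list was made by name and is not limited to transducers of BMP signals. Bmp7 and Smad3 had 5 reproducible regions each, 1 of them within 1 kb of an end. The lowest IDRs were at the ligand gene Bmp7 (3.43e-07, 4.55 kb away) and the transducer genes Smad3 (1.53e-05, 22.5 kb away) and Smad4 (5.21e-05, 4.80 kb away). Longer genes have wider windows, which raises such counts. Per 100 kb of window, the median gene held 0.245 reproducible regions in the receptor list and 0.857 in the intracellular and feedback list. It held 0 in the GDNF receptor family and 0.276 in the BMP and SMAD list, against 0 over all protein-coding genes.

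**Figure D4:**
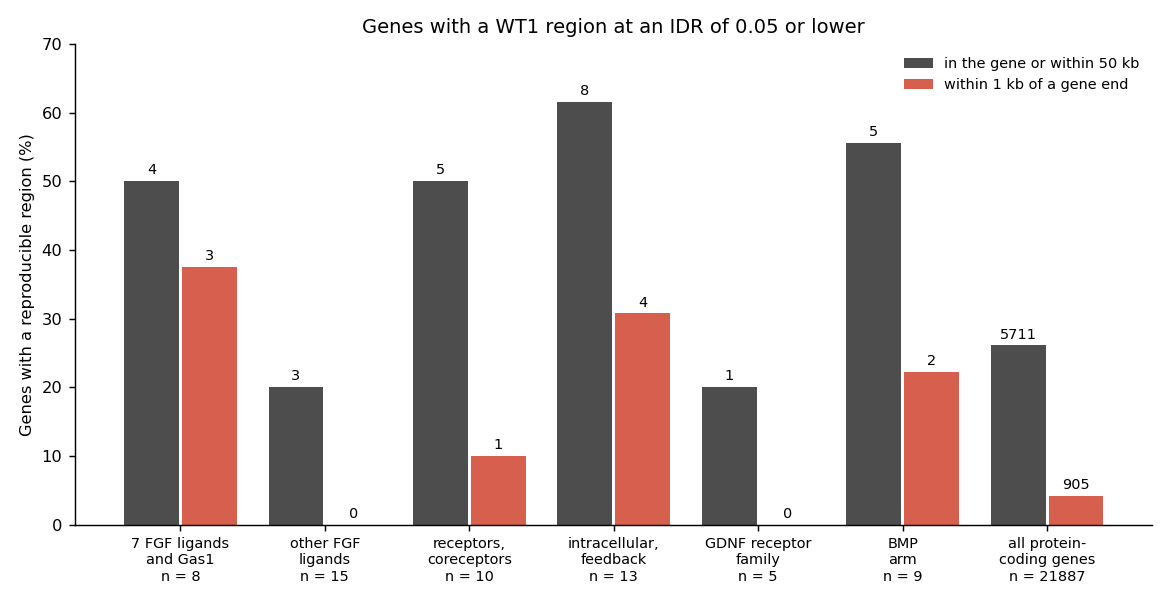
Share of genes with a region at an IDR of 0.05 or lower, in percent, in the gene or within 50 kb (dark bars) and within 1 kb of a gene end (red bars), with the number of such genes above each bar and the size of each list below. For the 8 genes the shares are 50% and 37.5%, and for all protein-coding genes 26.1% and 4.13%. The bars named other FGF ligands hold the 15 other Fgf genes, taken by name. The bars named BMP arm hold the list of BMP and SMAD genes, Smad3 included.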

How the data were processed

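Per the labels' protocols, fixed kidneys were homogenized, nuclei were sonicated, and recovered DNA was cut with restriction enzymes and amplified in 18 rounds of PCR before sequencing. The deposited peak lists give a p-value or q-value per peak, made by the authors, and the deposited overlap table gives an IDR, read as a q-value, per region. The build is mm10, per the submitters' processing notes. The aligner, peak caller and use of IgG reads are not stated in the sources used here. Genes and sequences came from RefSeq tables of GRCm38.p6, the assembly behind mm10, which matched 8 of 8 symbols and the promoters of 5.

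Positions are 1-based, and midpoints placed peaks (Python 3.11.15, pandas 2.3.3). The value of a region in a replicate is its lowest overlapping peak. The window counts were tested on simulated data. Alternatives were other IDR thresholds, windows, placement and overlap rules, and each replicate alone. The members and lists were chosen with earlier results of these data known. Named genes were all 8 members, up to 2 genes nearer to a region, up to 3 per pathway list by lowest IDR, and those nearest in rank. Etv4, Etv1 and Spry2 of the intracellular and feedback list were added after their values were seen. The distance to Tut7, Micu3 and Atrx was added in the same way.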

Additional observations from a re-analysis of the deposited data

How the results depend on the processing

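The number of the 8 genes with a reproducible region (4) was 4 at IDR thresholds of 0.01 and 0.1, with any overlap of 1 bp, with peaks of the replicates sharing at least 50% of each other, and with a 10 kb window, and 5 with a 100 kb window, which added Fgf7, or with all overlap regions, which added Fgf9. Among all protein-coding genes the share was 26.1% at the main setting, and 19.6% and 30.2% at IDR thresholds of 0.01 and 0.1. It was 26.1% with any overlap of 1 bp and 25.9% with the 50% rule. With windows of 10 and 100 kb it was 13.6% and 38.1%, and with all overlap regions 57.0%. The 5 of 8 with all overlap regions was thus close to the share over all genes. The number of their regions (5) became 10 with all overlap regions and 8 with a 100 kb window, both settings that admit more regions by construction. The number of genes with one within 1 kb of an end was 3 in every alternative run. The share of all genes ranged from 2.80% at an IDR of 0.01 to 10.8% with all overlap regions. The window size does not enter this count. The IDR thresholds of 0.01 and 0.1 could not change it either, as no region of these genes had an IDR between 0.00584 and 0.265. From the 4411 lowest-valued peaks of 1 replicate alone, these 3 counts were between 4 and 4, 5 and 5, and 3 and 3. For replicates 1 and 2 alone, the shares of all genes were 24.7% and 26.2% in the 50 kb window. Within 1 kb of an end they were 3.44% and 4.32%. Of 72 counts per gene and alternative, 66 were within 1.5 times the count given and 6 were not. Many of the 66 were 0 in both settings, at Fgf9, Fgf10, Fgf7 and Fgf2, so this tally says little about stability. No paired analysis was possible because the IgG samples were not analysed here and no test between samples was made. Without read counts the depth is unknown, so a missing peak does not show a lack of binding.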

Other observations

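Several peaks with a significance value of 0.001 or lower were found in a single replicate. At Fgf8 these were a peak of replicate 1 on chromosome 19, 45687408 to 45687679 (4.73e-04, 48.9 kb from the gene), and a peak of replicate 2 at 45789357 to 45789486 (4.01e-04, 46.5 kb from it). At Fgf9 they were the peak of replicate 1 at 58026977 to 58027140 (1.99e-04) and the peak of replicate 2 at the higher-coordinate end of the gene (5.53e-05). The other strong peaks of the 8 genes, 5 in replicate 1 and 10 in replicate 2, all lay in an overlap region.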
